A study of Danio rerio with 2 samples.

Results

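The genes efnb2a, ephb4a and nr2f2 are 3 of the 27771 features of the deposited zebrafish matrices. They were taken by symbol, and each symbol matched 1 feature: ENSDARG00000020164 for efnb2a, ENSDARG00000100725 for ephb4a and ENSDARG00000040926 for nr2f2. Their levels were read in the authors' table of mean expression over 15 cell clusters in each library, and cell by cell in both raw count matrices, together with the endothelial gene cdh5.

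Arteries and veins take on separate identities before or as blood flow begins. Ephrin-B2, encoded in zebrafish by efnb2a, is a membrane-bound ligand of arterial endothelium and a classical marker of it, and its receptor EphB4, encoded by ephb4a, is classically higher in veins. Signalling between the ligand and the receptor keeps arterial and venous cells apart. Nr2f2 (COUP-TFII) is a nuclear receptor that, in mice, holds venous identity by restraining Notch signalling, while Notch signalling supports arterial identity and ephrin-B2. The cadherin cdh5 (VE-cadherin) forms the junctions between endothelial cells.

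Trunks of embryos at 27 hours post fertilization (hpf) were dissociated, and cells with membrane-bound mCherry under the kdrl promoter, which is active in endothelium, were sorted and taken through droplet-based 3′ single-cell RNA sequencing. The wildtype library came from fish with the activator transgene Tg(miR-223:KalTA4)ya362. The mutant library came from fish with the same kind of activator under another allele number, Tg(miR-223:KalTA4)ya363, and the mutation miR-223(ya303). Fish of both lines also carried the responder Tg(5xUAS:eGFP)nkuasgfp1a, and the mCherry reporter was Tg(kdrl:hras-mCherry)s896 in each. Each group was 1 library, so no test between genotypes was possible, and genotype cannot be told apart from clutch, sort or library preparation. The gene for miR-223 was not analysed here, so the genotypes are those of the labels.

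The wildtype library held 92241952 UMIs (unique molecular identifiers, each standing for a captured transcript) in 8702 barcodes, and the mutant library 125149083 in 9176. Filtering left 7520 and 8464 cells, with median UMI counts of 8334 and 9977. The label says endothelial cell, yet cdh5 was detected in 62.7% of the kept wildtype cells and 55.5% of the mutant ones. Cells with at least 3 UMIs of the erythroid genes alas2 and slc4a1a and no cdh5 numbered 1064 in wildtype and 2209 in the mutant library. Among the barcodes, 98 sequences occurred in both libraries. Levels are in CPM, the UMIs of a gene scaled to a common total. All intervals are 95% intervals of counting error, exact except for the score-based intervals of differences in shares, and treat UMIs or cells as independent and leave out variation between cells, clutches and preparations.

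In the authors' table, efnb2a stood highest in cluster 3, the cluster that its other markers named arterial-like. Its level there was 179 CPM in the wildtype library (169 to 189.8, 1131 UMIs in 913 cells) and 179 CPM in the mutant library (168 to 191, 955 UMIs in 782 cells). The next cluster, 6, which was endothelial-like and led by aqp8a.1, apoc1 and hey2 among others, held 69.1 CPM (wildtype) and 45.5 CPM (mutant). With the libraries summed, clusters 3 (179 CPM) and 6 (52.3 CPM) each lay apart from the cluster below it, and from the progenitor-like cluster 8 (34.7 CPM) downwards each interval overlapped that of its neighbour. The progenitor-like cells, marked by myb, gata2b and gfi1aa, held 31.1 CPM of efnb2a in wildtype and 38.3 CPM in the mutant library. The mesenchymal-like cluster 7 held 29.8 and 31.3 CPM, so efnb2a was also read outside endothelium. The venous-like clusters held 11.4 (cluster 0) and 19.8 CPM (cluster 2) in the wildtype library and 14.4 and 14.8 CPM in the mutant one. The mutant value of cluster 2 rested on 3 UMIs in 31 cells. Clusters 4 and 11 were lowest with the libraries summed. The erythroid-like cluster 4 held 0.611 CPM (wildtype) and 1.38 CPM (mutant), and 0 and 1 UMIs were counted in the myeloid-like cluster 11. The other myeloid-like cluster, 14, held 0 and 2 UMIs.

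The venous-like cells came mostly from a different cluster in each library: cluster 2 held 1925 wildtype and 31 mutant cells, and cluster 0 held 283 and 1846. For the class as a whole, efnb2a stood at 18.7 CPM in wildtype (16.7 to 21.0) and 14.4 CPM in mutant venous-like cells (12.4 to 16.6). That comparison sets mainly cluster 2 of the wildtype against cluster 0 of the mutant library. Within cluster 0, efnb2a was 11.4 CPM in wildtype and 14.4 CPM in mutant cells (log2 ratio 0.33, -0.30 to 1.02), within counting error.

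The receptor gene ephb4a was sparse, with 168 UMIs in wildtype and 156 in the mutant columns of the table. It stood highest in the endothelial-like cluster 5, at 19.4 CPM in the wildtype (12.7 to 28.4, 26 UMIs) and 10.7 CPM in the mutant library (6.88 to 16, 24 UMIs). That cluster, with 261 wildtype and 422 mutant cells, was led by stab2, asap1b, cxcl12a, exoc6 and sost among annotated genes. Its mean log2 level against the pooled endothelial clusters was -0.93 for the artery markers and -0.003 for the vein markers. A venous-like name needed a vein mean above 0, so the cluster fell just short of it. The arterial-like cluster 3 came next for the libraries summed, with 6.65 CPM (wildtype) and 6.76 CPM (mutant). The venous-like clusters, summed, held 4.67 CPM in the wildtype (3.66 to 5.86) and 4.76 CPM in the mutant library (3.66 to 6.10). Those intervals overlapped the ones of arterial-like cells (4.79 to 8.99 and 4.73 to 9.36). Within each library ephb4a was thus not resolved as higher in either class by this comparison. In neither library was its value higher in the venous-like class. With the libraries summed it was 6.70 CPM in cluster 3, 4.86 CPM in cluster 0 and 4.55 CPM in cluster 2. An interval for the ratio of the 2 classes was not worked out. In the mutant columns alone the highest value was 14.8 CPM in cluster 2, which rested on 3 UMIs in 31 cells. From rank 2 to rank 15 of the clusters each ephb4a interval overlapped the next. The endothelial-like cluster 1 held little of it, 7 UMIs in 1444 wildtype cells and none in 580 mutant cells.

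The venous factor gene nr2f2 was spread over clusters 5, 0, 6 and 2, whose levels with the libraries summed were 26.8, 23.6, 23.2 and 19.6 CPM with overlapping intervals, and it was low in the arterial-like cluster. The arterial-like cluster 3 held 1.42 CPM in the wildtype (0.651 to 2.70, 9 UMIs) and 3.19 CPM in the mutant library (1.86 to 5.11, 17 UMIs). The venous-like cluster 0 held 22.4 and 23.7 CPM, and cluster 2 held 19.1 CPM in the wildtype library. The value of the mutant cells of cluster 2, 54.3 CPM, rested on 11 UMIs in 31 cells. Below these clusters lay the endothelial-like cluster 1, with 11.3 CPM (wildtype) and 7.22 CPM (mutant), and the muscle-like cluster 10, with 9.21 and 8.42 CPM. The myeloid-like clusters 11 and 14 were at 0 in both libraries. Cluster 6 stood high for efnb2a and for nr2f2 at once, with 25.7 CPM of nr2f2 in wildtype and 22.2 CPM in the mutant library.

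**Figure D1:**
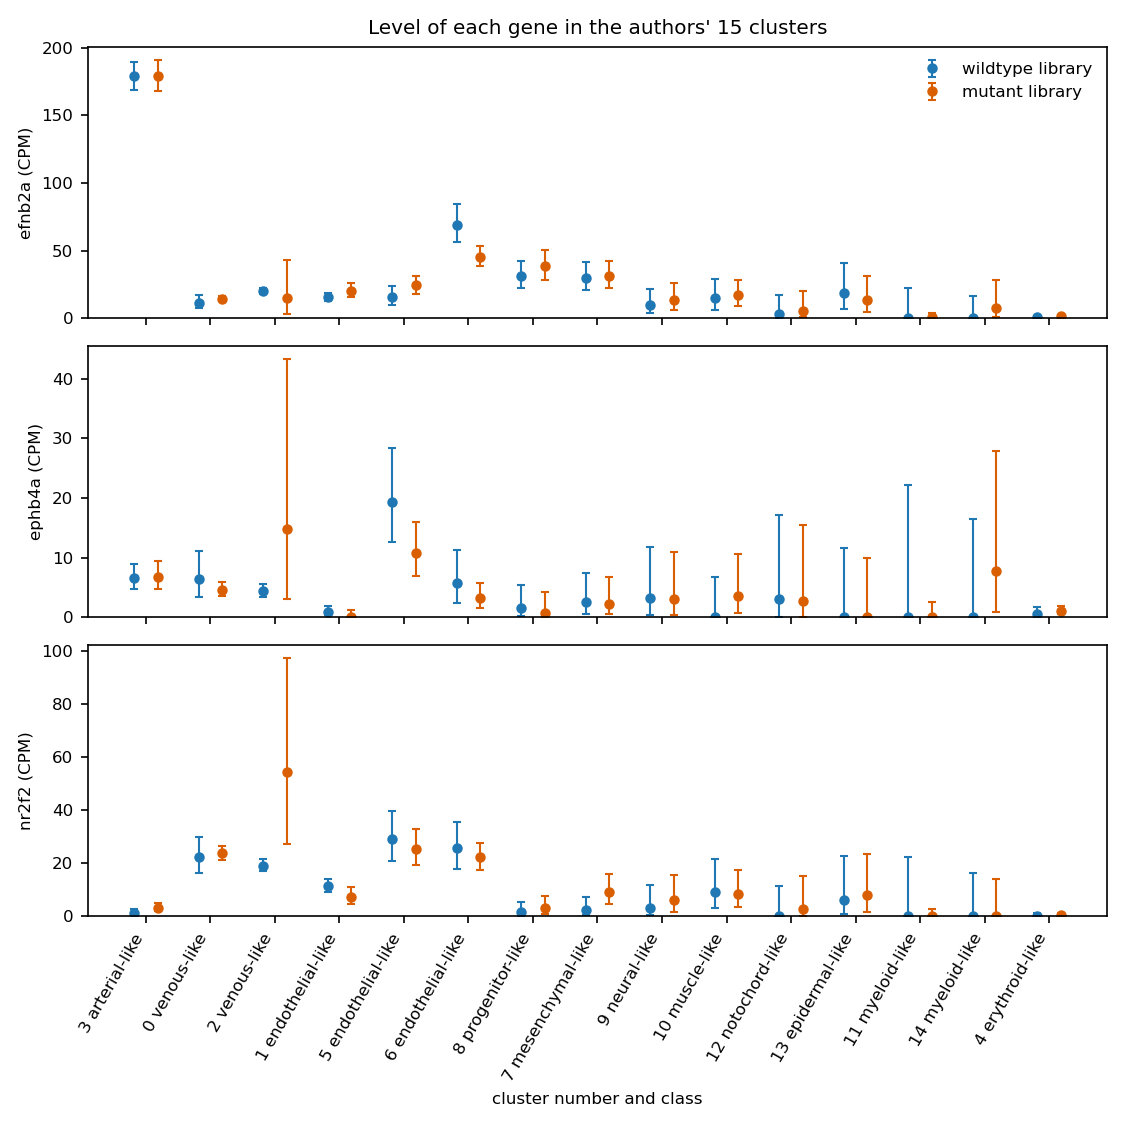
Level in CPM (linear axes from 0) of efnb2a, ephb4a and nr2f2 in the authors' 15 clusters, with points for the wildtype and the mutant library and bars for exact Poisson 95% intervals of the summed UMIs. efnb2a stands at 179 CPM in the arterial-like cluster 3 in both libraries, nr2f2 is low there (1.42 and 3.19 CPM), and ephb4a is highest in cluster 5 apart from a mutant value in cluster 2 that rests on 3 UMIs.

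The UMIs of all the members lay mostly in clusters of endothelial kind (0, 1, 2, 3, 5 and 6). These clusters held 94.3% of the efnb2a UMIs in wildtype and 91.1% in the mutant table, 93.5% and 85.9% of the ephb4a UMIs, and 97.0% and 93.0% of the nr2f2 UMIs. They made up 80.4% of the wildtype and 67.4% of the mutant cells of the table.

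In the raw matrices the members were detected more often in cells with cdh5. To compare shares at equal depth, cells with at least 2000 UMIs were thinned to 2000 UMIs each, which left out 202 wildtype and 140 mutant cdh5-positive cells. In the wildtype library, 61.3% of the 493 cells with an efnb2a UMI also held a cdh5 UMI, against 36.5% of the cells without efnb2a. Among mutant cells the shares were 62.5% of 445 cells and 30.9%. For nr2f2 the cdh5 shares were 63.6% with and 37.8% without it in the wildtype library, and 58.5% and 32.1% in the mutant library. For ephb4a they were 60% (27 of 45 cells) and 38.1% in wildtype and 50% (24 of 48 cells) and 32.6% in the mutant library. All 6 differences lay above 0 beyond counting error. With cells that held erythroid UMIs left out, a choice made after seeing the data, the differences for efnb2a shrank from 24.7 to 16.3 points in wildtype and from 31.5 to 17.0 points in the mutant library. The ephb4a differences then became 13.8 (-1.13 to 27.0) and 4.74 points (-9.58 to 18.5), within counting error, and those of nr2f2 18.0 and 11.7 points.

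Among cdh5-positive cells thinned in this way, the wildtype library had efnb2a in 434 of 4516 (9.61%, 8.77 to 10.5%), and the mutant library had it in 395 of 4557 (8.67%, 7.87 to 9.52%). The share for ephb4a was 0.819% (37 cells, 0.578 to 1.13%) in wildtype and 0.834% (38 cells, 0.591 to 1.14%) in the mutant library. For nr2f2 it was 2.75% (2.29 to 3.27%) and 3.2% (2.71 to 3.76%). At this depth none of these shares differed between the libraries beyond counting error, the differences being -0.94 points (-2.13 to 0.24) for efnb2a, 0.01 points (-0.37 to 0.40) for ephb4a and 0.46 points (-0.24 to 1.16) for nr2f2. In full counts of the same cells the shares were 25.6% and 23.7% for efnb2a, 3.45% and 3.29% for ephb4a, and 9.30% and 11.1% for nr2f2. The efnb2a difference of -1.88 points (-3.65 to -0.10) and the nr2f2 difference of 1.85 points (0.60 to 3.10) then lay beyond counting error. At 4000 UMIs the efnb2a difference was -1.73 points (-3.28 to -0.19), again beyond it, and that of nr2f2 was 0.42 points (-0.55 to 1.39).

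Erythroid cells without cdh5 served as a background, to which free RNA in droplets may contribute. Thinned in the same way, they held efnb2a in 0.282% (wildtype) and 0.408% (mutant) of cells, ephb4a in 0.0941% and 0 of 2204 cells, which allows up to 0.136%, and nr2f2 in 0 of 1063 cells, which allows up to 0.282%, and in 0.0907%. Their median depth before thinning was 30350 and 27405 UMIs, against 8081.5 and 8131 in cdh5-positive cells. In thinned shares each member was above this background in cdh5-positive cells of both libraries. Thinning takes a larger part of the UMIs from the deeper background cells, so a free-RNA share per droplet is not matched by it. In full counts ephb4a was found in 0.658% (wildtype) and 0.951% (mutant) of the background cells. In all cdh5-positive cells the full-count shares were 3.41% and 3.28%. Most positive cells carried a single UMI before thinning: 152 of 161 wildtype and 151 of 154 mutant cdh5-positive cells with ephb4a, and 348 of 430 and 428 of 515 with nr2f2. Only efnb2a reached higher counts often, with 3 or more UMIs in 299 wildtype and 246 mutant cells and at most 19 and 11 in a cell.

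Cdh5-positive cells were next grouped by markers that leave out the members. The artery group had at least 1 thinned UMI of dll4, hey2, dlc, cxcr4a, gja5b or tbx20, which are genes of arterial endothelium and the Notch pathway, and none of the vein list. The vein group had at least 1 of dab2, flt4, stab1, stab2, mrc1a or lyve1b, which are genes of venous and lymphatic endothelium, and none of the artery list. The artery group held 258 wildtype and 152 mutant cells and the vein group 2522 and 2762. UMIs of both lists were found in 1372 and 1059 cells and of neither in 364 and 584. The groups are not pure cell types: flt4 was read at 109 CPM and dab2 at 185 CPM in the full counts of the wildtype artery group.

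In the artery group efnb2a stood at 146 CPM in the wildtype (131 to 162, 356 UMIs) and 124 CPM in the mutant library (106 to 143, 177 UMIs). In the vein group it stood at 25 CPM (567 UMIs) and 26.1 CPM (673 UMIs). The artery group was 5.85-fold higher in the wildtype (5.11 to 6.69) and 4.73-fold higher in the mutant library (3.99 to 5.60). For nr2f2 the order was the other way, with 1.23 CPM (3 UMIs) in the artery and 16.7 CPM (380 UMIs) in the vein group of the wildtype library. Mutant cells held 2.09 CPM (3 UMIs) and 19.2 CPM (495 UMIs). The vein group was 13.6-fold (4.62 to 66.2) and 9.17-fold higher (3.12 to 44.6) for nr2f2, with only 3 UMIs behind each artery value.

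The vein group was not higher for ephb4a. The receptor gene stood at 5.33 CPM (13 UMIs) in the artery and 3.96 CPM (90 UMIs) in the vein group of the wildtype library, a ratio of 1.35 (0.690 to 2.42) that counting error leaves unresolved. Mutant cells held 9.77 CPM (14 UMIs) and 3.22 CPM (83 UMIs) in these groups, and the artery group was 3.04-fold higher (1.59 to 5.39). With groups set from full counts that difference fell within counting error (log2 ratio 1.11, -0.80 to 2.53). With cells that held erythroid UMIs left out, the log2 ratios of ephb4a were 0.23 (-0.82 to 1.14) and 1.48 (0.51 to 2.33).

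Differences past 1.5-fold were common between these groups, and the artery groups were small, so the share that counting error gives was not separated out. Of 7204 genes averaging 5 CPM or more in the wildtype library, 17.7% were past 1.5-fold higher and 17.9% past 1.5-fold lower in the artery group. Of 7349 such genes in the mutant library, 17.0% were higher and 18.0% lower. The median log2 ratio over all of them was 0.03 in wildtype and 0.05 in the mutant library. Of the members, efnb2a was past that fold higher and nr2f2 past it lower in both libraries. For nr2f2 the 5 CPM mean was reached only through the vein group. Its values there were 16.7 and 19.2 CPM, against 1.23 and 2.09 CPM in the artery group, so the filter favoured a lower call for nr2f2. In the wildtype library ephb4a was below the 5 CPM mean and not counted. In the mutant library it was past 1.5-fold higher, but it reached that mean only through its artery value. That value was 9.77 CPM (14 UMIs), against 3.22 CPM in the vein group, so the filter itself favoured a higher call for ephb4a.

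**Figure D2:**
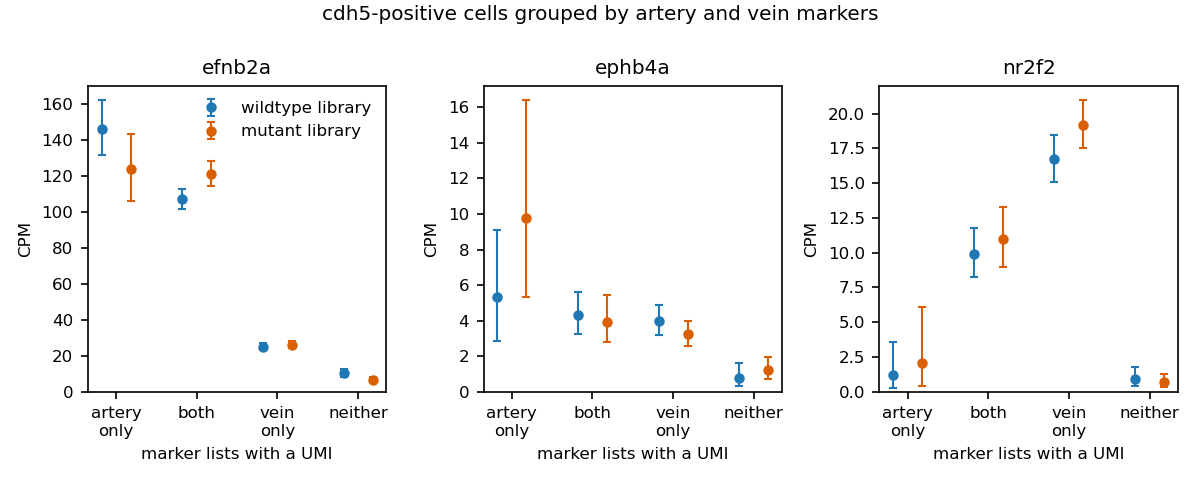
Level in CPM (linear axes from 0) of each member in cdh5-positive cells with thinned UMIs of the artery list alone, of both lists, of the vein list alone or of neither, by library, with exact Poisson 95% intervals. efnb2a falls from 146 CPM (wildtype) and 124 CPM (mutant) in artery-only cells to 25 and 26.1 CPM in vein-only cells, nr2f2 rises from 1.23 and 2.09 to 16.7 and 19.2 CPM, and the intervals of ephb4a are wide.

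The level of efnb2a followed the number of artery-marker UMIs. Cdh5-positive wildtype cells with 0, 1, 2 and at least 3 such UMIs held 20.8, 78.7, 114 and 193 CPM of efnb2a, and mutant cells 19.0, 83.9, 151 and 197 CPM. Neighbouring steps did not overlap in either library. For nr2f2 the same steps gave 12.2, 9.87, 9.29 and 4.54 CPM in wildtype and 12.5, 12.7, 7.44 and 4.06 CPM in the mutant library. Against all cells with no artery UMI, only those with 3 or more lay clearly below. That first step mixes the vein group with cells of neither list, which held little nr2f2. The vein group alone held 16.7 CPM (15.1 to 18.5) and 19.2 CPM (17.5 to 21.0). Cells with 1 artery UMI already lay below it, with intervals of 7.84 to 12.3 and 10.0 to 15.8 CPM. By vein-marker UMIs nr2f2 went from 0.961 CPM in wildtype cells with none, over 2.01 and 6.70 CPM, to 17.2 CPM in cells with 3 or more, and from 0.807 over 4.81 and 5.16 to 20.8 CPM in the mutant library. With ephb4a the artery steps gave 3.06, 4.87, 4.93 and 3.12 CPM in the wildtype library, whose intervals all overlapped. In the mutant library they gave 2.50, 2.93, 5.58 and 9.13 CPM, and the last value (5.41 to 14.4, 18 UMIs) lay above the first (2.03 to 3.03, 101 UMIs). Along the vein list efnb2a stood at 39.2 CPM in wildtype cells with no vein-marker UMI, 102 CPM with 1, 122 CPM with 2 and 38.3 CPM with 3 or more, and at 16.9, 81.0, 88.1 and 41.1 CPM in mutant cells. The values at 1 and 2 overlapped in both libraries and lay above those at either end. The cells with no vein-marker UMI were a mixture. Of them, 364 of 622 wildtype and 584 of 736 mutant cells had no artery-marker UMI either. Those cells were deep, with medians of 26347 and 26658 UMIs. They held 10.3 and 6.54 CPM of efnb2a and 0.888 and 0.681 CPM of nr2f2. The values at 0 vein-marker UMIs are therefore not those of artery-marker cells alone.

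**Figure D3:**
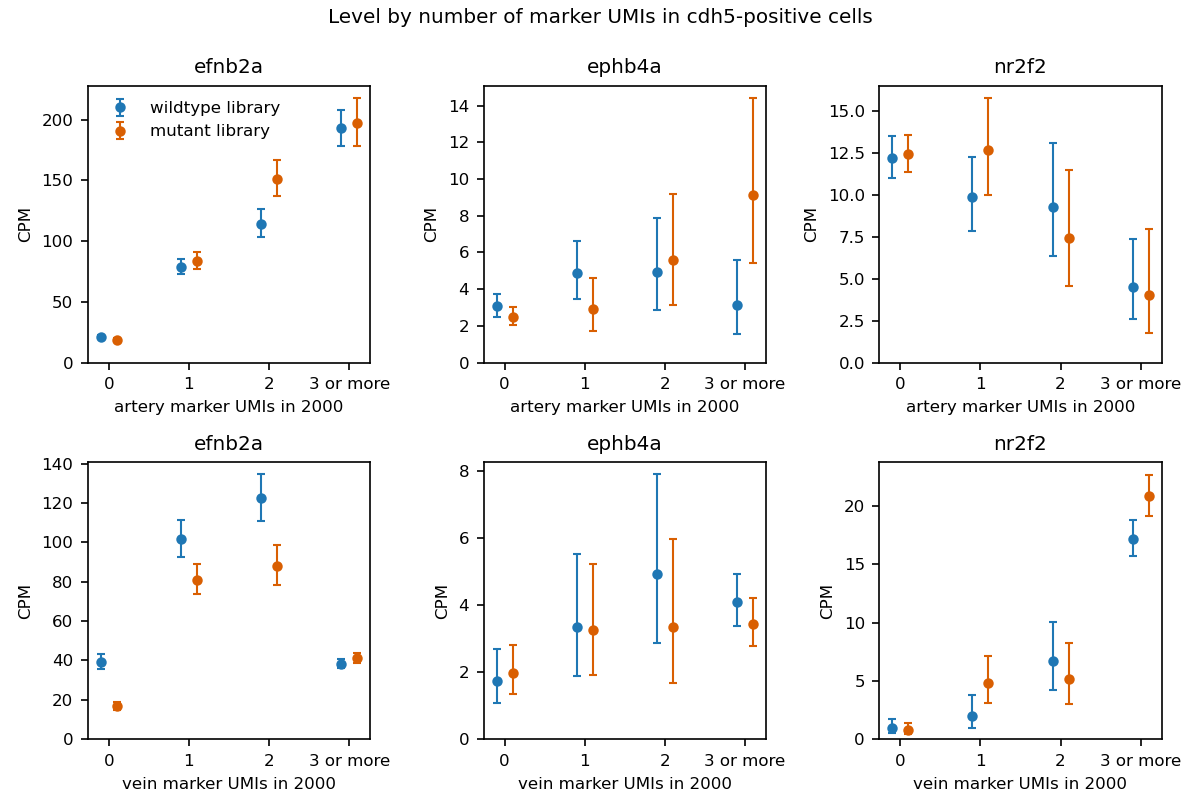
Level in CPM (linear axes from 0) of each member in cdh5-positive cells by the number of artery-marker (upper row) or vein-marker UMIs (lower row) among 2000 thinned UMIs, by library, with exact Poisson 95% intervals. efnb2a climbs from 20.8 and 19.0 CPM at 0 artery UMIs to 193 and 197 CPM at 3 or more, and nr2f2 climbs along the vein list to 17.2 and 20.8 CPM.

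The markers were also read from the other side, in the cells in which a member was caught. Thinned wildtype cells with efnb2a held more cxcr4a (252 against 50.2 CPM, log2 ratio 2.33, 2.09 to 2.57), dlc, hey2 and dll4 than cdh5-positive cells without it, and less lyve1b (217 against 633 CPM, -1.55, -1.76 to -1.34), stab2 and dab2. In the mutant library the ratios were 2.48 for cxcr4a and -1.47 for lyve1b. Cells with nr2f2 held less hey2 (-1.57 in the wildtype, -2.26 in the mutant library) and cxcr4a (-1.82 and -1.94). They held more stab2 (0.52 and 0.78), dab2 (0.30 and 0.47) and lyve1b (0.50 and 0.28, the latter 0.04 to 0.51). The cells without nr2f2 included all but 1 of the 364 wildtype and all but 1 of the 584 mutant cells of neither list. Those cells have no thinned UMI of either list by definition, so they lower the levels compared against. The ratios without them were not worked out. The values for dll4 (-0.25 and -1.42) and dlc (-1.40 and -2.53) were lower beyond counting error in the mutant library alone. Those for flt4 (0.16 and 0.23), stab1 (0.40 and 0.54) and mrc1a (0.67 and -0.29) lay within it. The 37 wildtype cells with ephb4a differed from the others in none of the artery or vein markers beyond counting error. Of the artery and vein markers in the 38 mutant cells with it, dll4 (0.92, 0.16 to 1.59) and hey2 (1.32, 0.36 to 2.14) were higher beyond it, with 18 and 12 UMIs.

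Few cells held 2 members at equal depth. Such counts are low in advance, because each member alone was caught in 0.819 to 9.61% of the wildtype cells. The counts by themselves therefore do not show that the members lie in separate cells. Among thinned cdh5-positive cells, efnb2a and ephb4a were found together in 4 wildtype and 6 mutant cells, nr2f2 and ephb4a in 4 and 3, and efnb2a and nr2f2 in 7 and 4. All 3 genes were found together in 0 of 4516 wildtype cells, which allows up to 0.0664%, and 0 of 4557 mutant cells, which allows up to 0.0658%. In full counts of the same cells, all 3 were found in 3 wildtype and 5 mutant cells.

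The pair of efnb2a and nr2f2 was the one with a difference resolved in full counts. There, efnb2a was found in 14.3% of 420 wildtype cells with nr2f2 (11.1 to 18.0%) and 26.7% of those without it, a difference of -12.4 points (-15.8 to -8.54). In the mutant library it was found in 18.7% of 508 cells with nr2f2 (15.4 to 22.4%) and 24.3% of the others, a difference of -5.63 points (-9.05 to -1.78). In thinned cells the shares were 5.65% and 9.72% in the wildtype (difference -4.08 points, -7.10 to 1.54) and 2.74% and 8.86% in the mutant library (-6.12 points, -8.01 to -1.95). At 4000 UMIs both differences lay beyond counting error, at -10.1 points (-13.0 to -5.77) in wildtype and -8.08 points (-10.9 to -3.95) in mutant cells. At 1000 UMIs neither did, at -1.61 points (-4.44 to 5.80) and -2.33 points (-4.45 to 4.50).

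The pairs with ephb4a gave no difference that held across depths. In full counts ephb4a was found in 4.33% of wildtype cells with efnb2a and 3.15% of those without it, and in 3.89% and 3.11% of mutant cells. Among cells with and without nr2f2 it was found in 4.05% and 3.39% of wildtype and 3.35% and 3.28% of mutant cells. The 4 differences in full counts, from 0.06 to 1.18 points, lay within counting error. In thinned wildtype cells the share with ephb4a was 3.23% with nr2f2 (4 of 124 cells) and 0.751% without it, a difference of 2.47 points (0.49 to 7.25) that turned negative with cells thinned to 1000 or 4000 UMIs. In wildtype cells at 4000 UMIs the difference with and without efnb2a was 1.13 points (0.05 to 2.71), against 0.11 points (-0.54 to 1.56) at 2000.

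**Figure D4:**
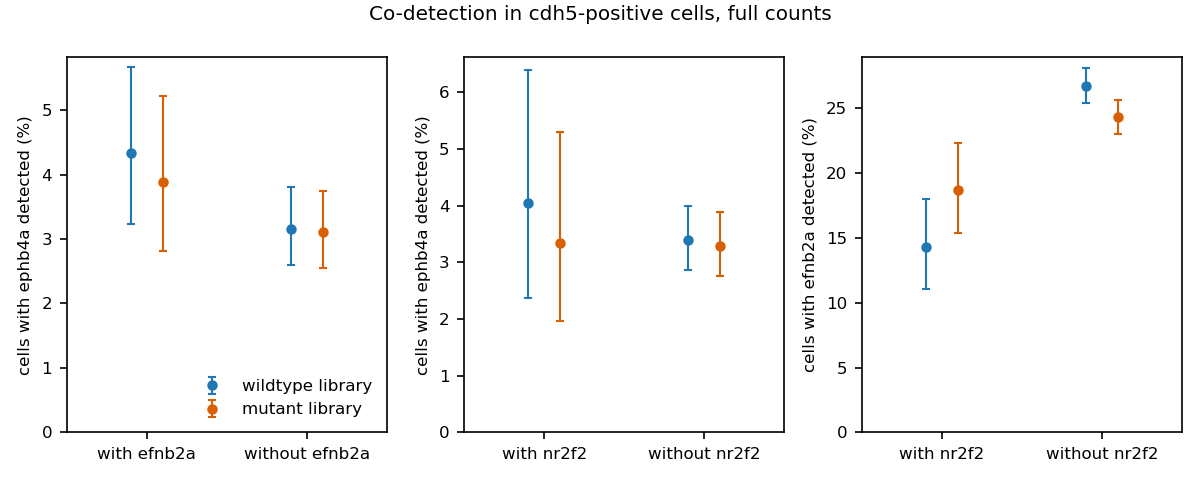
Share of cdh5-positive cells (in percent, axes from 0, full counts of cells with at least 2000 UMIs) in which the second gene was detected, among cells with and without the first, by library, with exact binomial 95% intervals. The share with efnb2a is 14.3% and 18.7% in cells with nr2f2 against 26.7% and 24.3% in those without, while the shares with ephb4a overlap.

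Between the libraries, efnb2a in the arterial-like cluster of the authors' table had a log2 ratio of mutant over wildtype of 0.00 (-0.12 to 0.13). Among the clusters it was lower in the mutant library beyond counting error in cluster 6 (-0.60, -0.98 to -0.22), and 12 clusters lay within counting error and 2 had a count of 0. For ephb4a 10 clusters lay within counting error, cluster 5 among them (-0.85, -1.72 to 0.01), and 5 had a count of 0 in a library. For nr2f2 cluster 2 was higher in the mutant library (1.5, 0.48 to 2.37, from 31 mutant cells), 11 clusters lay within counting error and 3 had a count of 0. Over the clusters of endothelial kind together, which all lie in the same table, the log2 ratios were 0.02 (-0.08 to 0.12) for efnb2a and 0.29 (0.11 to 0.48) for nr2f2.

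**Figure D5:**
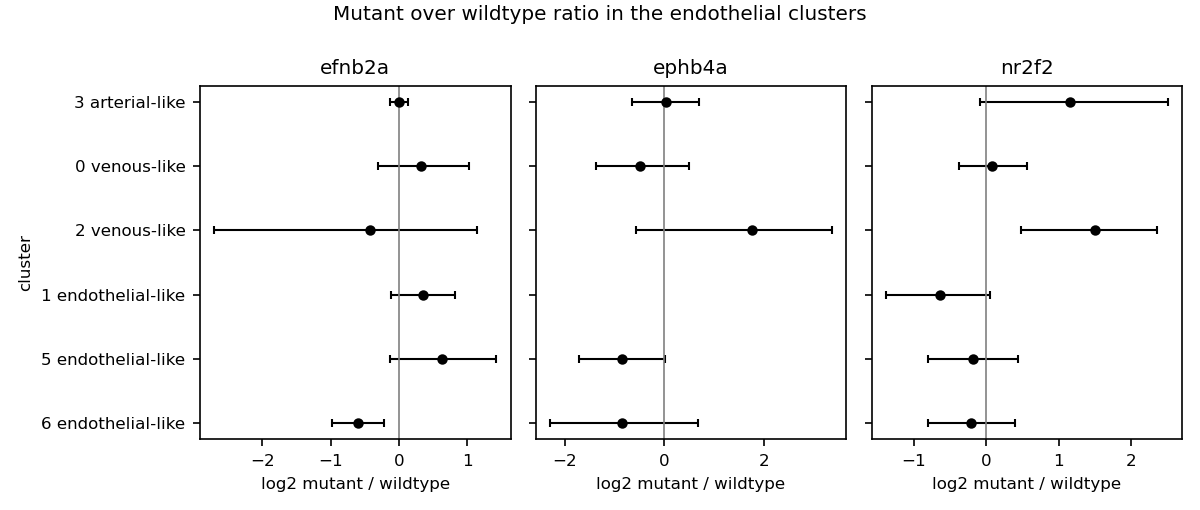
Log2 ratio of mutant over wildtype CPM of each member in the 6 clusters of endothelial kind, with exact conditional 95% intervals of counting error. No point is drawn for ephb4a in cluster 1, where the mutant library held none, and the grey line marks an equal level. The interval leaves 0 for efnb2a in cluster 6 and for nr2f2 in cluster 2.

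In cdh5-positive cells of the matrices, efnb2a stood at 51.2 CPM in the wildtype (2416 UMIs) and 40.9 CPM in the mutant library (2105 UMIs), a log2 ratio of -0.32 (-0.41 to -0.24). The receptor gene ephb4a stood at 3.64 and 3.05 CPM (172 and 157 UMIs, -0.26, -0.58 to 0.06), and nr2f2 at 11.2 and 12 CPM (528 and 619 UMIs, 0.10, -0.07 to 0.27). Over 7216 genes averaging 5 CPM or more, 4.96% were past 1.5-fold higher and 5.76% past 1.5-fold lower in the mutant library, with a median log2 ratio of -0.05. Neither efnb2a nor nr2f2 was past that fold, and ephb4a was below the 5 CPM mean.

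Cells that held erythroid UMIs moved with these ratios. At least 3 UMIs of alas2 and slc4a1a were found in 309 of the wildtype cdh5-positive cells (6.55%, with 20.4% of their UMIs) and in 637 of the mutant ones (13.6%, with 35.3%). These cells were deep, with medians of 32210 and 28883 UMIs, and held 9.46 and 5.95 CPM of efnb2a. Without them, efnb2a stood at 61.9 CPM (wildtype) and 59.9 CPM (mutant), and the log2 ratio was -0.05 (-0.13 to 0.04). For nr2f2 the levels without them were 13.5 and 17.4 CPM, and the ratio was 0.36 (0.18 to 0.53). For ephb4a they were 4.34 and 4.11 CPM (-0.08, -0.42 to 0.26). This choice was made after seeing the data. The lower efnb2a of the mutant library was therefore within counting error without these cells and in the authors' endothelial clusters, whereas pooled nr2f2 was higher in the mutant library under both of those choices. Within single endothelial clusters the nr2f2 rise was resolved only in cluster 2, with 31 mutant cells. The log2 ratios were 0.08 in cluster 0, -0.64 in 1, 1.16 in 3, -0.19 in 5 and -0.21 in 6, all within counting error. The libraries also differed in how their cells were spread over these clusters, and the effect of this on the pooled value was not tested. With at least 2 cdh5 UMIs required, the ratios were -0.14 (-0.23 to -0.05) for efnb2a and 0.26 (0.08 to 0.45) for nr2f2.

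Other artery genes did not share the efnb2a values in the arterial-like cluster. There the Notch ligand gene dll4 stood at 508 CPM (wildtype) and 376 CPM (mutant) (log2 ratio -0.43, -0.52 to -0.35), and the chemokine receptor gene cxcr4a at 274 and 179 CPM (-0.61, -0.73 to -0.50). The Notch ligand gene dlc (-0.27) and the Notch target hey2 (-0.20) were also lower beyond counting error. The venous genes stab2 (194 and 277 CPM, 0.51, 0.40 to 0.62) and dab2 (466 and 662 CPM, 0.51, 0.44 to 0.58) were higher in the same cluster, as was flt4 by less (0.16, 0.04 to 0.29). The other vein markers lay within counting error there, at -0.23 for stab1, -0.21 for mrc1a and -0.03 for lyve1b. In cdh5-positive cells as a whole, 4 artery markers averaged 5 CPM or more. All 4 were past 1.5-fold lower in the mutant library, against 5.76% of all genes. None of the 6 vein markers was past 1.5-fold in either direction, and 4.96% of all genes were past it higher. Without the cells that held erythroid UMIs, 2 of the 4 artery markers were past that fold, dll4 (-0.62) and cxcr4a (-0.72), against 3.56% of 7408 genes (4.36% were past it higher), while hey2 (-0.34) and dlc (-0.39) were lower beyond counting error but not past it.

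Of the 13 listed genes for ephrin-B ligands and EphB receptors, 12 were in the feature table and 5 reached 1 CPM in cdh5-positive cells of a library. Besides efnb2a and ephb4a these were efnb2b, ephb3a and ephb4b. The second EphB4 gene, ephb4b, showed the venous pattern that ephb4a did not. It stood at 25.2 CPM (572 UMIs) in the vein and 13.5 CPM (33 UMIs) in the artery group of the wildtype library, 1.86-fold higher in the vein group (1.31 to 2.73). The mutant groups held 22.9 and 13.3 CPM of it, 1.73-fold higher in the vein group (1.1 to 2.89). In the authors' table ephb4b was 37.0 CPM in the main wildtype venous-like cluster 2 and 32.7 CPM in the main mutant one, cluster 0, against 16 and 17.3 CPM in the arterial-like cluster. How the authors' counting treated reads shared between close paralogues is not given in the sources used here, so the split of reads between ephb4a and ephb4b is uncertain.

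The EphB3 gene ephb3a stood at 7.24 and 6.80 CPM in cdh5-positive cells and did not differ between artery and vein groups beyond counting error. The ligand gene efnb2b was caught with 44 and 57 UMIs (0.932 and 1.11 CPM) and did not differ between those groups either. Between the libraries, none of the 3 class B genes averaging 5 CPM or more was past 1.5-fold. Of all genes, 4.96% were past it higher and 5.76% lower, so a count of 0 among 3 is not set apart. Their median log2 ratio was -0.26, against -0.05 over all genes. Cells that held erythroid UMIs were also left out, a choice made after seeing the data. The log2 ratios were then -0.05 for efnb2a, 0.18 for ephb3a and 0.02 for ephb4b, against a median of 0.03 over all genes.

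Of the 6 NR2F genes, 5 reached 1 CPM. The factor gene nr2f1a split the groups like nr2f2. It had 0 UMIs in the artery and 2022 UMIs (89.1 CPM) in the vein group of the wildtype library, at least 72.3-fold higher against a floor of 3 counts over the group. In the mutant library it had 11 UMIs (7.68 CPM) and 1890 UMIs (73.3 CPM), 9.54-fold higher in the vein group (5.32 to 19.2). The authors' arterial-like cluster held 3.64 and 6.38 CPM of it. By contrast nr2f6a (38.6 against 34.8 CPM in the wildtype) and nr2f6b (22.6 against 23.6 CPM) did not differ between artery and vein groups beyond counting error in the wildtype library. In the mutant library nr2f6b was 1.40-fold higher in the artery group (1.03 to 1.87, 34.9 against 25 CPM), and nr2f6a held 48.2 and 38.2 CPM, within counting error. For nr2f5 the groups held 2.46 and 2.55 CPM, and its high levels lay in the mesenchymal-like cluster (107 CPM wildtype, 122 CPM mutant). None of the 4 NR2F genes averaging 5 CPM or more was past 1.5-fold between the libraries. Of all genes, 4.96% were past it higher and 5.76% lower in the mutant library, so a count of 0 among 4 does not set the NR2F genes apart.

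Likeness to each member was ranked by Pearson's r of log2(CPM + 1) over the 15 clusters, among 6794 genes, as a description with no test, since clusters share libraries and large differences between cell types. Most like efnb2a were daam1a (0.90), fut11 (0.88), rnd1a (0.87), hey2 (0.87) and gnb2 (0.87). Most like nr2f2 were the neuropilin genes nrp2b (0.94) and nrp2a (0.93), then mafa (0.92), ap1s3b (0.90) and nupr1b (0.90). Most like ephb4a were mcf2l2 (0.87), kif13ba (0.85), plekhg2 (0.83), luzp1 (0.83) and snx27b (0.82), over levels that rest on few UMIs. Among the members, r was 0.46 for efnb2a with ephb4a, 0.56 for efnb2a with nr2f2 and 0.54 for ephb4a with nr2f2, over points that mix endothelial clusters with blood, muscle and other cells.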

How the data were processed

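The deposited matrices hold UMI counts per gene and cell (10x 3′ chemistry). The submitters' processing notes name bcl2fastq, Cell Ranger, Seurat and GRCz11, and the matrix headers give software version 3.0.2; the annotation release is not given in the sources used here. The authors' deposited table holds the mean signal (UMIs per cell) of 17822 genes in 15 clusters per library. For each of its 30 columns a cell number was found at which every value is a whole sum (534660 values, 100% within 1e-06), giving 6227 wildtype and 6125 mutant cells; 0 columns were left unmapped. Columns named KO were taken as the miR-223 mutant library. Clusters were named here from marker lists that leave out the members, and the names need not match the study's.

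Kept cells had at least 500 genes and at most 10% mitochondrial UMIs; doublets were not removed (Scrublet in scanpy 1.11.5 was an alternative). Cdh5-positive means at least 1 cdh5 UMI. Intervals are exact Poisson, Clopper-Pearson, Newcombe and exact conditional at 95%; a count of 0 allows 3 counts. All cover counting error only. The 1.5-fold background used a pseudocount of 1 CPM. With 1 library per group there is no p-value. TMM factors came from edgeR 4.0.16. Interval, thinning and count-recovery steps were tested on simulated data. Named genes were the members, listed relatives reaching 1 CPM, the marker lists and the 5 most alike genes per member. Members and lists were chosen with earlier results of these data known.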

Additional observations from a re-analysis of the deposited data

Results flagged for a closer look

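In the authors' clusters the mutant over wildtype ratio of nr2f1a went opposite ways, each beyond counting error and with at least 20 UMIs in each library. Its log2 ratio was 0.70 in the endothelial-like cluster 6 and 0.81 in the arterial-like cluster 3, and -0.58 in the endothelial-like cluster 1 and -0.86 in the neural-like cluster 9. The difference between clusters was not tested, and each value compares 1 library with 1 other.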

How the results depend on the processing

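No paired analysis was possible because each group holds 1 library. Of 242 alternative values, 230 have a counting interval: 199 of these lay within the interval of the reported value and 31 outside it. The sign changed in 15, in none of them with both intervals clear of 0, and in 23 the interval came to include or to leave out 0. Of the other 12, which have no interval, 7 moved by over 1.5 times. Counts of ephb4a were low throughout, which limits every value of it. The cause of the moves was not tested. The log2 ratio of mutant over wildtype in cdh5-positive cells was, for efnb2a, -0.14 with at least 2 cdh5 UMIs, -0.42 with kdrl in place of cdh5, -0.047 without cells that held erythroid UMIs and 0.022 in the authors' endothelial clusters, a reversal within counting error. For nr2f2 it was 0.36 and 0.29 under the last pair of choices and 0.26 with at least 2 cdh5 UMIs. For ephb4a it was 0.02 in the authors' clusters, within counting error. TMM moved all log2 ratios by 0.05 and changed no call. The share difference was 1.85 points for nr2f2 unthinned, and for efnb2a -1.88 unthinned and -1.73 at 4000 UMIs; with kdrl in place of cdh5 it was -1.88 for efnb2a, and all of these lay beyond counting error. With kdrl the ephb4a difference with and without nr2f2 was 1.67 (0.04 to 6.13) in mutant cells and 1.53 (-0.15 to 7.17) in wildtype cells. The log2 ratio of the highest over the median cluster was 3.60 for efnb2a in mutant columns alone, 2.92 for ephb4a in wildtype columns alone, and 3.15 (wildtype) and 2.91 (mutant) for nr2f2. The artery over vein log2 ratio of efnb2a was 3.05 and 2.81 (wildtype, mutant) with at least 2 UMIs of the own list and 3.02 and 2.56 with groups from full counts. The difference in ephb4a share with and without nr2f2 in wildtype cells reversed to -0.56 at 1000 UMIs and -1.25 at 4000, and was -0.50 in mutant cells at 1000. With and without efnb2a it was -0.59 (wildtype, 1000 UMIs) and -0.75 (mutant, 4000). That of efnb2a with and without nr2f2 was -10.1 (wildtype) and -8.08 (mutant) at 4000 UMIs and -12.4 unthinned in wildtype cells. The cdh5 difference for efnb2a was 19.1 and 13.8 points (wildtype, mutant) at 1000 UMIs, 31.1 and 42.2 at 4000, and 16.3 and 17.0 without cells that held erythroid UMIs, and for mutant nr2f2 14.3 at 1000 UMIs and 11.7 without those cells. With a pseudocount of 5 CPM, 3.05% of genes were higher and 3.73% lower. Of the 5 genes most like efnb2a, 2 stayed with a pseudocount of 10 CPM and 2 over all 30 columns; for ephb4a 2 and 3 stayed, and for nr2f2 2 stayed with that pseudocount.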

Other observations

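Ligands and receptors of the related class A, ephrin-A and EphA, were also read in these cells. Of 18 listed genes 16 were in the feature table, 9 reached 1 CPM in cdh5-positive cells and 4 averaged 5 CPM or more. Of those 4, 2 were past 1.5-fold lower in the mutant library, against 5.76% of all genes. Of these 2, epha7 reached that mean only through its wildtype value, so the filter itself favoured a lower call for epha7. The ligand gene efna1b stood at 65.2 CPM (wildtype) and 37.5 CPM (mutant) (log2 ratio -0.80, -0.88 to -0.72), and the receptor gene epha7 at 6.76 and 3.77 CPM (-0.84, -1.11 to -0.58). Without cells that held erythroid UMIs, a choice made after seeing the data, these ratios were -0.54 (-0.63 to -0.46) and -0.57 (-0.85 to -0.30). None of the 4 class A genes was then past 1.5-fold, where 4.36% of all genes were past it higher and 3.56% lower. In the authors' table efna1b was lower on the mutant side in arterial-like cells, cluster 3, (77.4 and 54.4 CPM, -0.51, -0.72 to -0.30) and the venous-like cluster 0 (87.6 and 62.4 CPM, -0.49, -0.73 to -0.25), and also in clusters 5 (-0.71) and 6 (-0.40).

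The receptor gene epha2a stood higher in the artery than in the vein group in both libraries, at 55.0 and 37.5 CPM in the wildtype (1.47-fold, 1.21 to 1.76) and 47.5 and 29.6 CPM in the mutant library (1.60-fold, 1.23 to 2.06). For efna1b the artery and vein groups did not differ beyond counting error, with 77.1 and 74.4 CPM in wildtype and 45.4 and 47.2 CPM in the mutant library.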
